A study of Oryza sativa and Triticum aestivum and Oryza sativa Japonica Group with 26 samples.

Results

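In young panicles of the japonica rice cultivar JZ1560, the domains of an active histone mark, H3K36me3, were set against those of a Polycomb mark, H3K27me3. The libraries were chosen by their labels: 1 JZ1560 H3K36me3 library and 3 JZ1560 H3K27me3 libraries, 4 of the 26 samples of the series. JZ1560 was a field-grown, untreated cultivar. The marks were mapped by ChIP-seq, in which fragments bound by an antibody against the modified histone are sequenced and the places where they pile up are listed as peaks. 6 further JZ1560 lists describe what lies at the places found: 2 of H3K4me3, 2 of H3K4me1, 1 of H3K27ac and 1 of the input, which is chromatin sequenced without enrichment. The indica cultivar HHZ, also untreated and also young panicle, gave 3 H3K27me3 lists, 1 H3K36me3 list and 1 input list for comparison. A young panicle holds many cell types, so a place that carries both marks in these lists may carry them in the same cells or in different cells, and the lists cannot tell these apart.

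H3K36me3 is laid down while RNA polymerase II elongates and is found over transcribed genes, in plants mostly in their first part. H3K27me3 is written by Polycomb repressive complex PRC2 and lies over genes kept silent, many of them regulators of development such as floral homeotic genes. The enzyme of PRC2 works poorly on histone tails that carry H3K36me3, and in Arabidopsis the marks switch with each other at the flowering repressor gene FLC during cold. H3K4me3 and H3K27ac mark the starts of active genes, and H3K4me1 lies over transcribed gene bodies in plants.

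H3K36me3 filled more of the genome than H3K27me3, in domains that were both more numerous and wider. A domain is a stretch of touching or overlapping peaks of 1 list. No peaks touched or overlapped within any list used, so each domain of a list was a single peak. H3K36me3 had 18562 domains with a median width of 3305 bp, and they covered 70.9 Mb, or 18.9% of the 374 Mb spanned by the lists. H3K27me3 replicate 1 had 12299 domains with a median of 949 bp and covered 15.9 Mb (4.25%). Replicate 2 had 11383 domains with a median of 1888 bp and covered 33.2 Mb (8.88%). Replicate 3 also had 11383 domains, but not the same ones, with a median of 2382 bp and 41.4 Mb (11.1%). Replicate 1 stands apart from the other 2 by its narrow peaks and by the places it lacks. Of its bases, 91.1% lay inside replicate 2 and 95.4% inside replicate 3. In turn it held only 43.6% of the bases of replicate 2 and 36.7% of those of replicate 3. Of the bases covered by replicate 2 or replicate 3, 76.5% were covered by both, against 41.9% for replicates 1 and 2 and 36.0% for replicates 1 and 3. Values are therefore given for each H3K27me3 library first, and where 1 map was needed, bases found in at least 2 of the 3 libraries were used, 33.1 Mb in 11519 domains. Peak lists do not show sequencing depth, which can set how much a list covers.

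The marks kept apart. Of the H3K27me3 bases, 2.31% lay inside H3K36me3 domains in replicate 1, 2.66% in replicate 2 and 3.03% in replicate 3, a mean of 2.67% ± 0.36 (SD, n = 3). H3K36me3 covered 18.9% of the genome, so the shared bases were 0.141 ± 0.019 (SD, n = 3) of what the covered lengths alone would give. All 3 libraries were low, between 0.122 and 0.160 of that value, although they differed 2.60-fold in covered length. With 1 H3K36me3 library there is no test over libraries, and the spread is that of the H3K27me3 libraries alone. Seen from the other side, 0.518%, 1.25% and 1.77% of H3K36me3 bases lay inside H3K27me3 domains of replicates 1, 2 and 3. By domains, 4.07% of replicate 1, 8.17% of replicate 2 and 10.8% of replicate 3 H3K27me3 domains touched H3K36me3 by at least 1 bp. The marks together covered 23.1%, 27.6% and 29.7% of the genome, so between 70.3% and 76.9% carried neither.

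Other JZ1560 lists show how far this depended on the mark. H3K4me1, the other gene-body mark, held still fewer H3K27me3 bases, 1.53% ± 0.25 and 1.86% ± 0.29 (SD, n = 3) in its 2 libraries, which covered 16.4% and 17.3% of the genome. The input held 11.2% ± 0.20 (SD, n = 3) of H3K27me3 bases and covered 11.8% of the genome, so its overlap was near that given by its cover. H3K27ac held 21.5% ± 1.2 (SD, n = 3) and covered 17.9%. The H3K4me3 libraries differed: the first held 4.12% ± 0.62 and covered 7.84%, and the second held 13.3% ± 2.6 and covered 14.9% (SD, n = 3). The low overlap was thus shared by both gene-body marks and was not seen with the input, H3K27ac or the second H3K4me3 library. The gene-body marks themselves overlapped widely, with 68.3% and 70.0% of H3K36me3 bases inside the H3K4me1 lists.

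A typical H3K27me3 domain lay several kilobases from the nearest H3K36me3 domain. The median distance was 9120 bp in replicate 1, 6629 bp in replicate 2 and 5839 bp in replicate 3, a mean of 7196 ± 1712 bp (SD, n = 3). The library with the widest domains gave the shortest distance and that with the narrowest the longest. From an H3K36me3 domain, the nearest H3K27me3 domain was farther: medians of 24716, 13762 and 11739 bp against replicates 1, 2 and 3. Domains of the same mark were closer. An H3K36me3 domain had its nearest fellow at a median of 2783.5 bp, and an H3K27me3 domain at 467, 2504 and 3807 bp in the 3 libraries. Input peaks behaved otherwise: 57.7% of them overlapped an H3K36me3 domain, against 4.07% to 10.8% of H3K27me3 domains. Input peaks covered 27.7% of H3K36me3 bases and 11.8% of the genome, so they are not an even background for this contrast. Within 2 kb of H3K36me3 were 12.6%, 23.3% and 27.3% of H3K27me3 domains, and within 20 kb 76.7%, 80.2% and 81.2%. The libraries that differed most at short range thus came close together at long range, and the farthest domain of each lay 473 to 474 kb away.

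**Figure D1:**
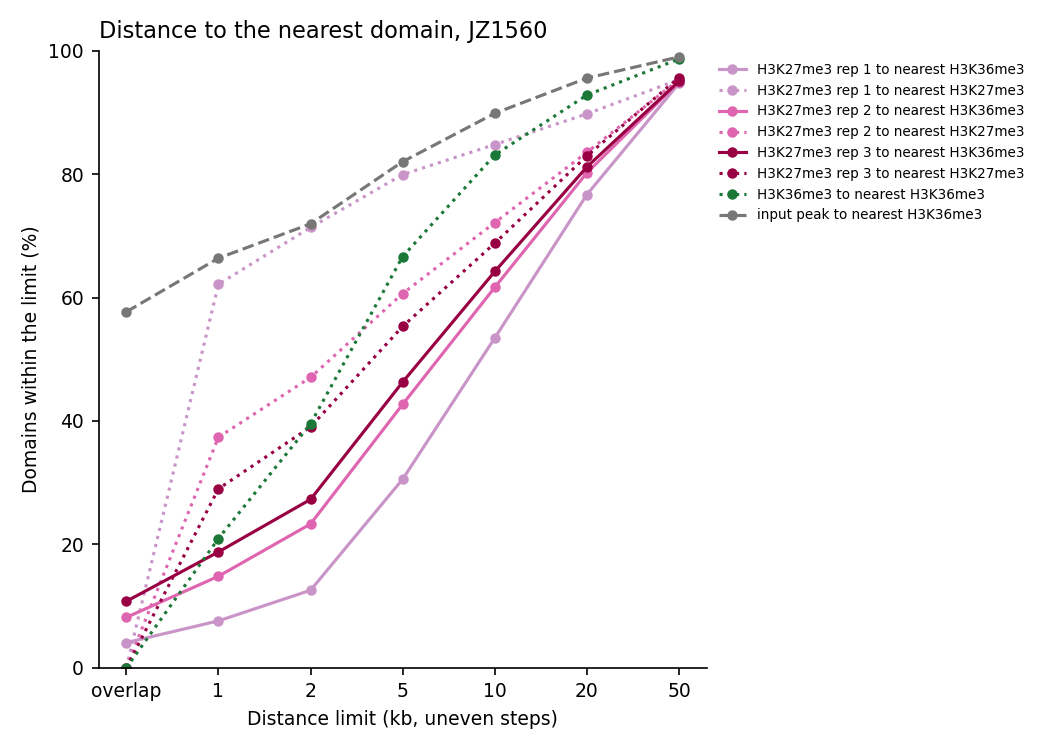
Share of domains (%) whose nearest partner domain lies within a distance limit (kb, uneven steps), for each H3K27me3 library to H3K36me3 (solid), for each mark to itself (dotted) and for input peaks to H3K36me3 (dashed). Input peaks start at 57.7% overlapping, while the H3K27me3 libraries start at 4.09% (adjoining domains included) to 10.8% and meet near 95% at 50 kb.

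Along the chromosomes the marks came in runs of the same kind. Domains of both marks were put in order of their midpoints and each neighbouring pair was read as a switch of mark or not. In replicate 1, 22.9% of pairs switched mark, in replicate 2 32.9% and in replicate 3 35.5%, a mean of 30.4% ± 6.7 (SD, n = 3). The same numbers of domains in no order would switch in 47.4% of pairs on average, by arithmetic from the domain counts, and all 3 libraries lay below it. A run of H3K36me3, that is consecutive domains with no H3K27me3 domain between them, held 5.23, 3.77 and 3.48 domains on average against replicates 1, 2 and 3, where an unordered series would give 2.51 to 2.63. A run of H3K27me3 held 3.48, 2.31 and 2.14 domains, where an unordered series would give 1.61 to 1.66. Replicate 1, with the narrowest peaks and the shortest distance between them, gave the longest runs. When H3K27me3 domains closer than 1 kb were joined, as were those of H3K36me3, the mean H3K27me3 run fell to 1.90 ± 0.14 domains (SD, n = 3). The switch share was then 36.2% ± 5.8 (SD, n = 3). The unordered values above are for unjoined domains, and none were taken for joined domains.

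Runs of H3K36me3 held more domains than those of H3K27me3 when all peaks were used. Runs of the marks take turns and so are nearly equal in number, 3547 and 3536 with replicate 1, and the mark with more domains has the larger runs. With each list limited to its 11383 highest-scoring peaks, the mean runs were 3.28 ± 0.75 domains for H3K36me3 and 3.29 ± 0.76 for H3K27me3 (SD, n = 3), so the difference was not found at equal numbers. With all peaks, runs of 10 or more domains held 47.2%, 27.3% and 24.2% of all H3K36me3 domains, against 28.1%, 8.40% and 7.56% of H3K27me3 domains, in replicates 1, 2 and 3. The most domains in 1 run were 54, 48 and 48 for H3K36me3, and 42, 20 and 21 for H3K27me3. At the other end, 26.7%, 32.3% and 33.8% of H3K36me3 runs and 37.2%, 49.3% and 52.4% of H3K27me3 runs were a lone domain between domains of the other mark. Long stretches in strict alternation were few. 17, 55 and 69 stretches of 5 or more domains alternated at every step, and the longest had 7, 11 and 9 domains.

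The 3 H3K36me3 runs with most domains, on the map shared by at least 2 H3K27me3 libraries, all lay on chromosome 3. A run has by definition no domain of the other mark between its domains on that map. Low cover by the other mark of JZ1560, in the runs named here and below, therefore follows from how they were picked. The first had 48 domains in 371 kb, at chr3:5646898-6017547, and H3K36me3 covered 56.0% of it. H3K27me3 covered 0.00216%, 0% and 0.0799% of that stretch in replicates 1, 2 and 3, only at its end. The second had 43 domains in 357 kb, at chr3:8656035-9013134, with 42.3% H3K36me3 and no H3K27me3 base in any of the 3 libraries. The third had 31 domains in 319 kb, at chr3:6272192-6591212, with 39.7% H3K36me3 and at most 0.896% H3K27me3. Input peaks covered 26.8%, 34.2% and 31.3% of these 3 stretches, above their 11.8% of the genome, and the part of this in the H3K36me3 runs was not tested. In HHZ, the H3K36me3 list covered 50.01%, 38.6% and 37.3% of the same coordinates, and H3K27me3 replicates 1 and 2 covered 1.69% to 5.12%.

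The longest H3K36me3 runs by length were sparse instead of dense. They lay at chr8:12457744-13477814 (1020 kb, 19 domains), chr11:11908333-12583318 (675 kb, 10 domains) and chr9:2506005-3169318 (663 kb, 24 domains). H3K36me3 covered only 9.00%, 5.34% and 13.1% of them. H3K27me3 covered at most 0.545% in any library, so these were long stretches with few domains of either mark.

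The H3K27me3 runs with most domains lay on chromosomes 11, 10 and 7. Lack of JZ1560 H3K36me3 between their domains is again part of how runs are defined. The run at chr11:24257041-24639742 had 19 domains in 383 kb. H3K27me3 covered 4.25%, 10.8% and 13.8% of it in replicates 1, 2 and 3, and no H3K36me3 base was found there in JZ1560 or in HHZ. The run at chr10:429710-773049 had 18 domains in 343 kb, with 7.65%, 14.1% and 17.2% H3K27me3 and no H3K36me3 in JZ1560. The run at chr7:20348625-20607472 had 18 domains in 259 kb, with 6.42%, 12.3% and 20.5% H3K27me3 and no H3K36me3 in either cultivar. These runs were thinly filled next to the H3K36me3 runs on chromosome 3. They also held few peaks of other kinds: input covered 0.403%, 2.20% and 0.800% of them, and H3K4me1 replicate 1 covered 0.220%, 0% and 0%. In HHZ replicates 1 and 2, H3K27me3 covered 20.1% to 36.7% of the same coordinates, more than in any JZ1560 library. These 2 HHZ lists also covered more of the whole genome, 13.8% and 16.5%, against 4.25%, 8.88% and 11.1% in JZ1560 replicates 1, 2 and 3. The longest H3K27me3 runs by length lay at chr4:2520809-3298766 (778 kb, 13 domains), chr4:3766069-4193636 (428 kb, 5 domains) and chr9:7411879-7800505 (389 kb, 16 domains). The chromosome 4 runs had at most 3.59% H3K27me3, while the run on chromosome 9 had 13.4%, 21.0% and 23.9%.

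**Figure D2:**
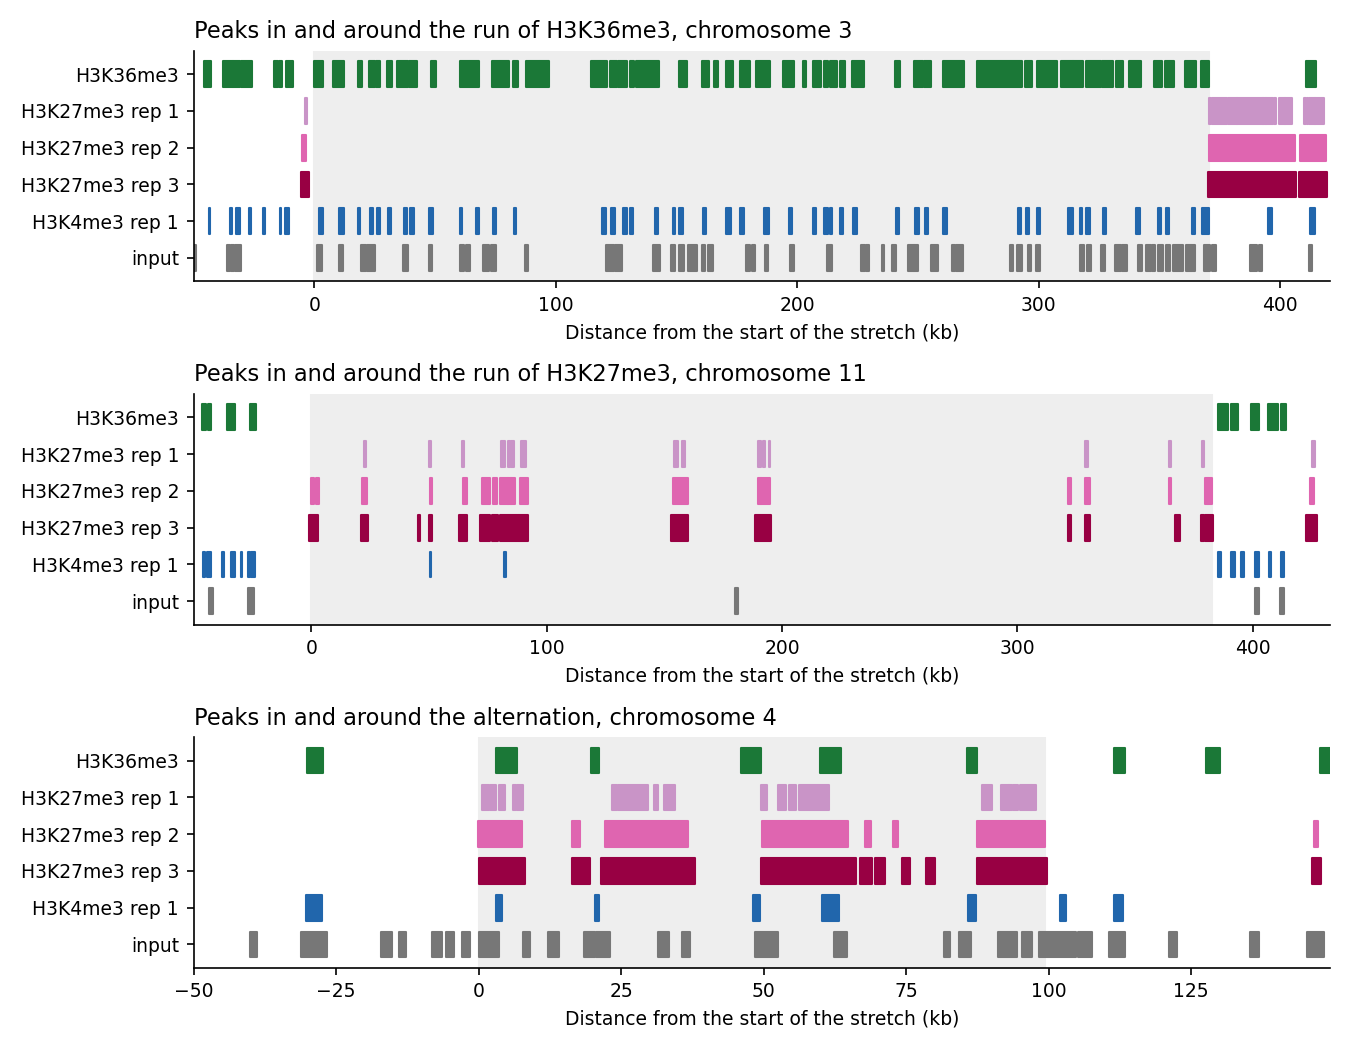
Peaks of each list (rows) along the H3K36me3 run with most domains, the H3K27me3 run with most domains and the longest strict alternation, in kb from the start of each stretch, which is shaded. The 48-domain H3K36me3 run is free of H3K27me3 until its last edge, and the 19-domain H3K27me3 run has no H3K36me3. Absence of the other mark between the domains of a run is part of its definition. The alternation was found on the map shared by at least 2 libraries. Single libraries, as drawn, do not take turns at every step there, and in places the marks overlap.

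On the map shared by at least 2 libraries, the longest alternation lay at chr4:29305116-29404424, where 11 domains in 99.3 kb took turns. H3K36me3 covered 14.0% of it, in 5 domains, and H3K27me3 covered 30.4%, 52.9% and 63.9% in replicates 1, 2 and 3. Taken singly, these replicates had 19, 7 and 9 H3K27me3 domains in the stretch, so none alternated at every step over its whole length. Order was read from midpoints, so nested domains also count as taking turns. The H3K36me3 domains that begin 3.085 kb and 59.954 kb into the stretch lay whole inside H3K27me3 domains of replicates 2 and 3. The next alternation was chr2:19565755-19622456, with 9 domains in 56.7 kb, 10.4% H3K36me3 and 2.72%, 10.9% and 11.8% H3K27me3. The third was chr7:10679837-10921671, with 8 domains in 242 kb, 5.33% H3K36me3 and at most 3.98% H3K27me3. Input peaks covered 29.9% and 24.8% of the first and second and 0.596% of the third. On the second, the HHZ H3K36me3 list had no base, while HHZ H3K27me3 replicates 1 and 2 covered 28.4% and 40.1%.

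The gap at a switch of mark was wider than a gap between neighbouring H3K36me3 domains in every library. The median gap at a switch was 6840 bp in replicate 1, 4845.5 bp in replicate 2 and 4335 bp in replicate 3, a mean of 5340 ± 1324 bp (SD, n = 3). Between 2 neighbouring H3K36me3 domains the medians were 4391, 3818 and 3693 bp in the orders taken with the same 3 libraries. Between 2 neighbouring H3K27me3 domains they were 684, 2293 and 3343.5 bp. Shared or crossing edges made up 6.48%, 9.49% and 11.8% of the switches. Gaps over 10 kb made up 37.7%, 29.5% and 27.4% of them.

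The spaces between neighbouring H3K36me3 domains fell into kinds that the H3K27me3 libraries told apart alike. Of 18548 spaces, 18.5% held H3K27me3 in replicate 1, 26.1% in replicate 2 and 28.6% in replicate 3. 3271 spaces (17.6%) held it in all 3 libraries and 13058 (70.4%) in none, so 88.0% were read the same way by all 3. Replicates 2 and 3 read 96.5% of the spaces alike, and of the spaces that replicate 1 marked, 95.1% were marked by both others. Both others also marked 1481 spaces (7.98%) that replicate 1 did not. Spaces with H3K27me3 were long, with medians of 28.6, 23.8 and 22.8 kb, against 4.40, 3.83 and 3.69 kb for those without. The share that held the mark went from 0.860% ± 0.50 of spaces under 2 kb to 16.8% ± 6.7 at 5 to 10 kb, 58.9% ± 9.7 at 20 to 50 kb and 82.1% ± 6.5 over 100 kb (SD, n = 3). A longer space has more room for any peak, and input peaks touched 42.4% of spaces under 2 kb and 79.1% of those over 100 kb. The filled length went differently for the 2. H3K27me3 filled 0.210%, 0.633% and 0.967% of the bases of spaces under 2 kb and 6.86%, 14.0% and 17.2% at 20 to 50 kb in replicates 1, 2 and 3, then 3.79%, 7.45% and 9.48% over 100 kb. Input peaks filled 26.5%, 8.30% and 2.08% of the bases in those length classes. H3K27me3 was therefore densest in spaces of middle length, and the input was densest in the shortest.

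**Figure D3:**
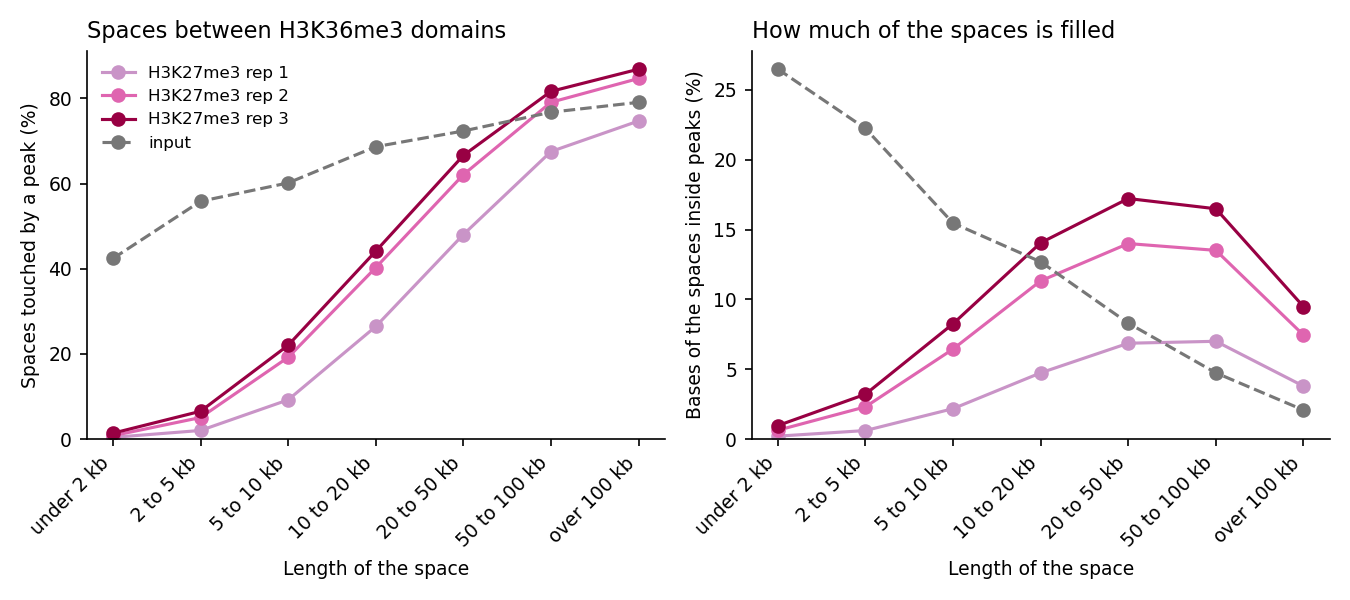
Left, share of the spaces between neighbouring H3K36me3 domains (%) that a peak touches, by length of the space, and right, share of their bases (%) inside peaks. H3K27me3 is close to 0 in spaces under 2 kb in all 3 libraries and fills most at 20 to 100 kb, whereas the input fills 26.5% of the shortest spaces and 2.08% of the longest.

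At the edges, the H3K36me3 domain looked much alike on its inner side whichever mark it faced, and the outer side differed. The edges were taken on the map shared by at least 2 libraries, with 8784 H3K36me3 edges facing H3K27me3 and 27392 facing another H3K36me3 domain. Of the 9708 switches on that map, the 924 with shared or touching edges were left out. H3K4me3 replicate 1, the mark of gene starts, was found 750 bp inside the edge at 60.2% of edges facing H3K27me3 and 58.8% of edges facing H3K36me3. H3K4me3 replicate 2 reached 72.6% and 71.7%, both 1250 bp inside. H3K27ac reached 64.5% and 66.0%. H3K4me1 replicate 1 peaked deeper, 1500 bp inside, at 62.5% and 67.8%, with 64.0% and 69.7% in replicate 2. Outside, 2 kb beyond the edge, H3K4me3 replicate 1 was found at 2.19% of edges facing H3K27me3 and 13.9% of those facing H3K36me3. At the same point H3K27ac was found at 14.5% and 32.5%, H3K4me1 replicate 1 at 4.16% and 25.9%, and input peaks at 13.4% and 20.9%. The outer differences include the next H3K36me3 domain, which itself covered 29.2% of positions 2 kb beyond an edge that faced one and 0.478% beyond an edge that faced H3K27me3.

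H3K27me3 came up beyond the edge over several kilobases. At 500 bp outside the H3K36me3 edge it was found at 1.09%, 4.66% and 7.84% of facing edges in replicates 1, 2 and 3, and its highest shares were 11.1% at 5750 bp, 25.4% at 4500 bp and 30.9% at 4750 bp. Facing edges were chosen for having H3K27me3 on that side, so the rise is not of interest. Crossing and touching edges were left out, which keeps H3K27me3 off the nearest bases. The distance therefore describes separated edges alone. H3K4me1 reached past the H3K36me3 edge into the gap: 25.5% and 28.0% of facing edges had it 500 bp outside, in its 2 libraries, and 4.16% and 5.31% at 2 kb. The H3K27me3 side differed by the facing mark as well. 1 kb inside an H3K27me3 edge, H3K4me3 replicate 2 was found at 24.0% of the 8784 edges facing H3K36me3 and at 14.9% of the 13326 facing another H3K27me3 domain. H3K27ac was found there at 29.5% and 24.1%. 500 bp inside, H3K4me3 replicate 1 was found at 7.10% and 4.39%, near or below its 7.84% of the genome, and input peaks at 15.7% and 10.0%. At edges facing H3K36me3, H3K4me3 was not limited to the inner side: replicate 1 was highest 4500 bp outside, at 13.1%, and replicate 2, at 24.0% inside, was still at 22.8% 5 kb outside. Input peaks moved in the same direction as the active marks there, and their part in the difference was not tested.

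**Figure D4:**
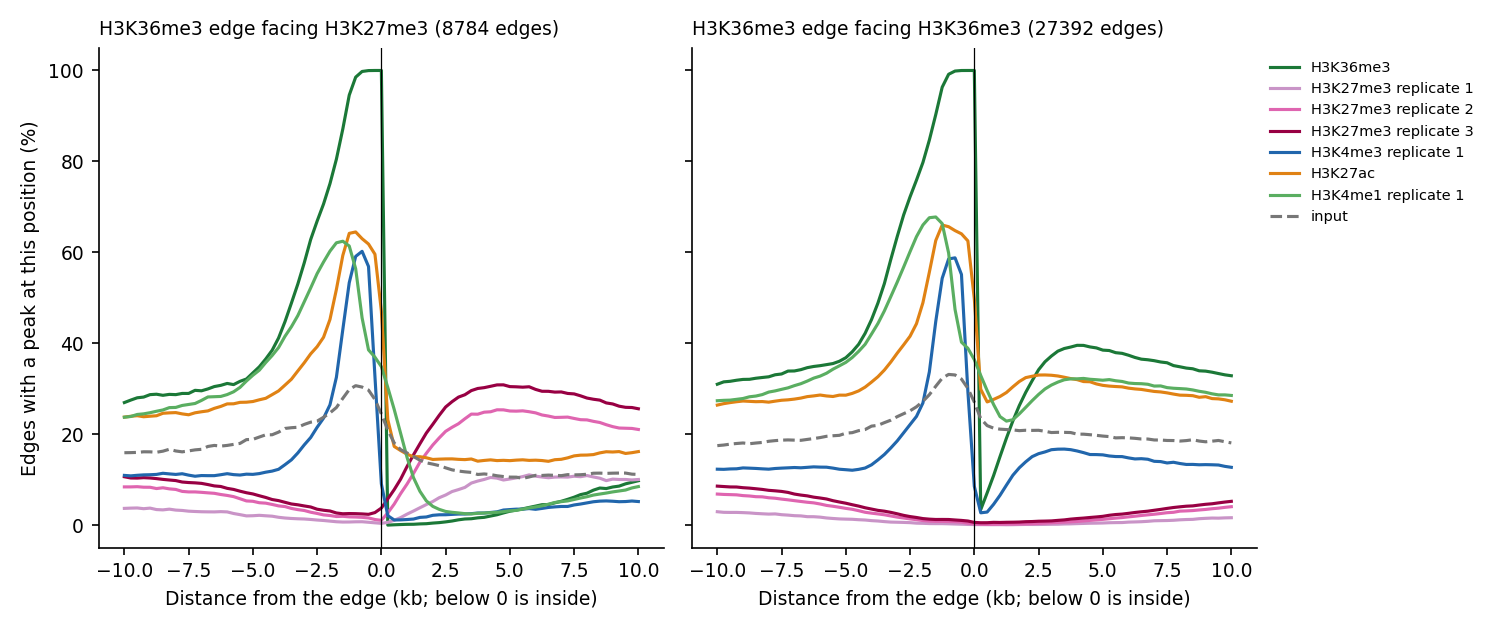
Share of H3K36me3 domain edges (%) with a peak of each list at a given distance from the edge (kb, below 0 inside the domain), for edges facing H3K27me3 (left) and edges facing H3K36me3 (right). The inner sides are alike, with H3K4me3 replicate 1 at 60.2% and 58.8%, while 2 kb outside it is at 2.19% and 13.9%. Edges that cross or touch H3K27me3 are left out.

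Gaps of like width differed by what flanked them. Among gaps of 1 to 5 kb on the shared map, H3K4me1 replicate 1 touched 66.3% of 5884 gaps between H3K36me3 domains, 43.5% of 3232 gaps at a switch and 1.22% of 1801 gaps between H3K27me3 domains. The shares for its replicate 2 were 68.0%, 45.1% and 1.44%. H3K27ac touched 69.9%, 53.7% and 24.5% of these gaps, and H3K4me3 replicate 1 touched 16.1%, 12.5% and 5.61%. Each list was found in the order H3K36me3 pair, switch, H3K27me3 pair. Input peaks had the same order, at 51.7%, 42.5% and 20.4%, with a smaller spread than H3K4me1, and their part in it was not tested. The same order held for all these lists with each of the 3 H3K27me3 libraries taken alone.

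Places with both marks were few and small. 504 were found with H3K27me3 replicate 1, 953 with replicate 2 and 1281 with replicate 3, a mean of 912.7 ± 390 (SD, n = 3). On the shared map there were 950 places with a median of 735 bp and 881 kb in all. In 594 of them (62.5%) the edges of neighbouring domains crossed, sharing a median of 372.5 bp. In 222 (23.4%) a whole H3K27me3 domain lay inside an H3K36me3 domain, and in 134 (14.1%) a whole H3K36me3 domain lay inside an H3K27me3 domain. The domains that held a whole domain of the other mark numbered 189 for H3K36me3, with a median width of 2.10 kb, and 127 for H3K27me3, with a median of 6.20 kb. H3K27me3 of all 3 libraries was present at 326 of the 950 places (34.3%, 95% Wilson interval 31.4 to 37.4%, which covers counting error only). By bases, 32.3% of those with both marks were in all 3 libraries, against 43.6% of all H3K27me3 bases on the shared map. On the same coordinates in HHZ, both marks were found at 508 places (53.5%, 95% Wilson interval 50.3 to 56.6%), taking places that touched HHZ H3K36me3 and both H3K27me3 replicates 1 and 2. H3K27me3 was there at 789 (83.1%) and H3K36me3 at 604 (63.6%). By bases, 84.9% and 86.5% of those with both marks lay in HHZ H3K27me3 replicates 1 and 2, against 88.2% and 89.7% of all H3K27me3 bases on the shared map. The HHZ H3K36me3 list held 55.7% of the bases with both marks, against 83.5% of all H3K36me3 bases of JZ1560.

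The bases with both marks carried the marks of gene starts more often than the bases with either mark alone. On the shared map, H3K4me3 replicate 1 covered 63.8% of them, against 35.4% of bases with H3K36me3 alone and 2.83% of bases with H3K27me3 alone. H3K4me3 replicate 2 covered 90.7%, 52.0% and 12.7% of these 3 kinds of base. H3K27ac covered 78.6%, 50.7% and 21.1%. H3K4me1 had another order, with 26.5%, 68.9% and 0.666% in replicate 1 and 28.4%, 70.5% and 0.932% in replicate 2. The input also stood highest where both marks met, at 40.8%, 27.5% and 10.5%, and its part in the overlap was not tested. With input bases removed from all lists, the mean share of H3K27me3 bases inside H3K36me3 domains was 1.73% ± 0.32 (SD, n = 3). The same orders were found with each H3K27me3 library alone, where H3K4me3 replicate 1 covered 60.9% to 64.4% of the shared bases. Position in the domain was not matched: 62.5% of the places were crossing edges, while H3K36me3 alone spans whole domains. Among H3K36me3 edges not crossed, H3K4me3 replicate 1 was found 500 bp inside at 56.9% of those facing H3K27me3 and 55.1% facing H3K36me3. H3K4me1 replicate 1 was found there at 38.6% and 40.3%. The part of position in these orders was not tested.

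H3K36me3 peaks that touched H3K27me3 were weaker and narrower than the rest. Their median score, a value the peak caller gave and whose scale is not stated, was 679 for 896 peaks, against 2023 for the other 17666, and their median width was 2528.5 bp against 3337 bp. The H3K27me3 peaks at these contacts were not weaker than the rest of their lists. H3K27me3 peaks that touched H3K36me3 had median scores of 96.3, 275 and 480 in replicates 1, 2 and 3, against 93.8, 240 and 401 for the others in the same list, so they were slightly higher in each library. When every list was limited to its 11383 highest-scoring peaks, the share of H3K27me3 bases inside H3K36me3 fell to 0.882% ± 0.11 (SD, n = 3) and the places to 357 ± 170. H3K27me3 replicates 2 and 3 had 11383 peaks already, so the limit cut only H3K36me3, from 18562, and replicate 1, from 12299. A smaller H3K36me3 list also overlaps less by its cover alone, and that part was not tested.

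The widest shared places were mostly H3K36me3 domains set whole within wide H3K27me3 domains, and H3K27me3 of all 3 libraries was present at each of the 10 widest. On the map shared by at least 2 libraries, the widest was chr10:20862827-20871003, where an H3K36me3 domain of 8177 bp lay in an H3K27me3 domain of 15.9 kb. H3K27me3 replicate 1 covered 86.1% of it, H3K4me1 70.9% and 76.9%, and input 27.6%. With replicate 3 alone a wider place was found, 9426 bp, of the opposite nesting, H3K27me3 inside H3K36me3. In HHZ the place on chromosome 10 lay wholly in H3K36me3, with 28.9% and 31.7% in H3K27me3 replicates 1 and 2. The next was chr12:26477525-26482730, an H3K36me3 domain of 5206 bp in an H3K27me3 domain of 10.5 kb. No input peak touched it, H3K27ac covered all of it, and HHZ had H3K27me3 over all of it in replicates 1 and 2 and H3K36me3 over 34.9%. The third was chr7:472939-477938, a 5000 bp domain in a 15.8 kb H3K27me3 domain, with 77.7% of it in replicate 1 and 23.2% in input peaks.

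The other 7 of the 10 widest places shared between 3882 and 4610 bp. They were chr3:30002996-30007605, chr9:19652822-19656849, chr4:28408696-28412715, chr1:7157561-7161577, chr1:42035481-42039469, chr3:6057895-6061786 and chr3:31051504-31055385. In 5 of these 7 the H3K36me3 domain lay whole within H3K27me3, and in the other 2, at chr3:30002996 and chr1:7157561, the edges crossed. The place on chromosome 4 sat in the widest host, an H3K27me3 domain of 34.6 kb, and there H3K4me3 replicate 1 covered 84.4%, H3K4me1 0% and HHZ H3K36me3 0%. The place on chromosome 9 was free of input peaks, whereas input covered 72.9% of chr1:42035481-42039469. HHZ H3K27me3 replicates 1 and 2 covered these 7 places in full, except that replicate 2 covered 49.4% of the place on chromosome 9.

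The widest domain of each mark showed the same separation with 1 exception. The widest H3K36me3 domain was 43.6 kb long, at chr2:15932657-15976235. It held no H3K27me3 base in any library, and H3K4me1 covered 98.5% and 98.6% of it. The widest domain of H3K27me3 replicate 3 was also 43.6 kb long, at chr7:2386654-2430230, and held no H3K36me3. Replicates 1 and 2 covered 64.7% and 97.0% of it, whereas HHZ H3K27me3 replicates 1 and 2 covered 3.48% and 3.81%. The widest of replicate 1, 12.6 kb at chr8:11024971-11037571, held no H3K36me3 and lay 19.5 kb from the nearest. It was not free of other peaks: H3K27ac covered 60.7% of it and the H3K4me1 libraries 22.3% and 24.6%. Input peaks covered 43.6% of it, against 3.72%, 4.61% and 0% of the widest domains of H3K36me3, replicate 2 and replicate 3. The part of the input there was not tested. The exception was the widest of replicate 2, 40.2 kb at chr8:20045178-20085422, of which H3K36me3 covered 22.7%. HHZ showed a like picture there, with 21.4% H3K36me3 and 99.99% and 99.98% H3K27me3 in replicates 1 and 2.

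The chromosomes differed more in H3K36me3 than in H3K27me3. H3K36me3 covered from 11.7% of chromosome 11 to 26.6% of chromosome 3. H3K27me3 covered from 6.64% ± 3.0 of chromosome 4 to 9.25% ± 3.8 of chromosome 9 (SD, n = 3), and within each library the range was narrow, 3.30% to 5.10% in replicate 1, 7.38% to 10.1% in replicate 2 and 9.24% to 12.6% in replicate 3. On chromosome 11 the marks came nearest to each other in cover, with 11.7% H3K36me3 and 4.21%, 8.61% and 11.02% H3K27me3, and nearly the same number of domains, 959 of H3K36me3 and 958 of H3K27me3 on the shared map. Input peaks also covered least of chromosome 11, 5.37%, and most of chromosome 3, 18.5%, and their part in the H3K36me3 range was not tested. The switch share had a small range over chromosomes, 27.7% ± 6.4 on chromosome 3 to 32.8% ± 7.0 on chromosome 8 (SD, n = 3). The share of H3K27me3 bases inside H3K36me3 went from 1.57% ± 0.47 on chromosome 11 to 4.26% ± 0.61 on chromosome 12 (SD, n = 3). No test was made between chromosomes, which are not replicates.

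**Figure D5:**
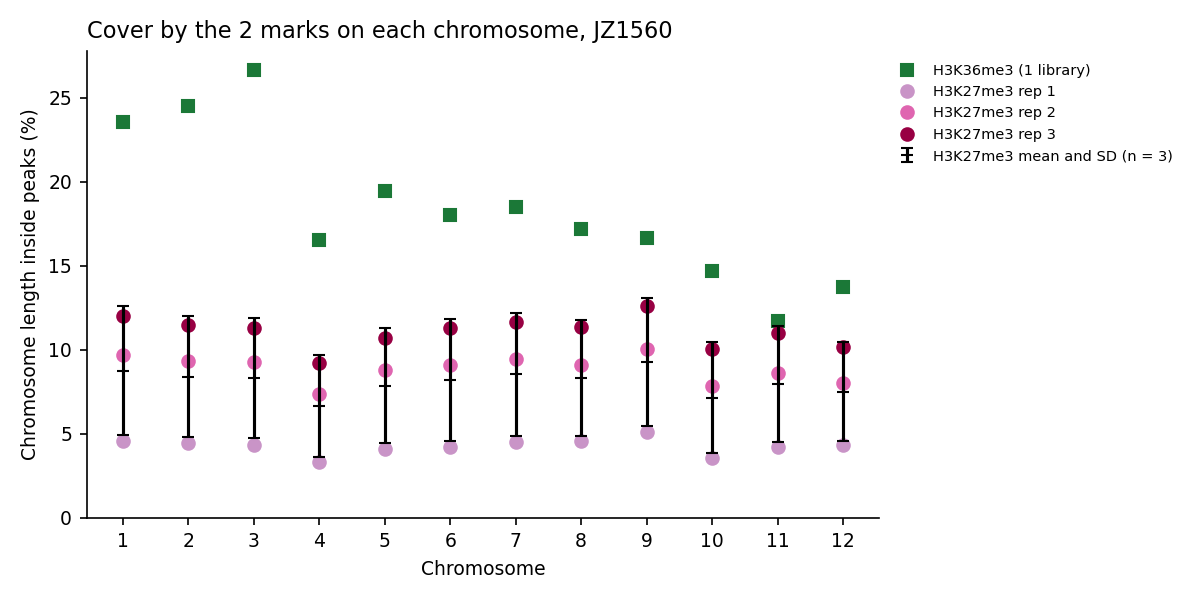
Share of each chromosome (%) inside peaks of H3K36me3 (squares, 1 library) and of each H3K27me3 library (circles), with the mean and SD of the 3 H3K27me3 libraries (bars). H3K36me3 ranges from 11.7% to 26.6% while each H3K27me3 library stays in a narrow band, and on chromosome 11 replicate 3 nearly reaches H3K36me3.

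At the scale of 1 Mb, windows rich in H3K36me3 were not poor in H3K27me3. Over 367 windows, cover by the marks had a Pearson correlation of 0.232, 0.302 and 0.292 with replicates 1, 2 and 3, and a Spearman correlation of 0.325, 0.383 and 0.357. These are descriptions across windows that share the libraries and neighbour each other, and input cover correlated at 0.239 to 0.315 with H3K27me3 and at 0.841 with H3K36me3. When windows were sorted by H3K36me3 into 5 classes, mean H3K27me3 cover was lowest in the poorest class, 2.54%, 5.61% and 7.28% in replicates 1, 2 and 3, and highest in the fourth, 5.49%, 11.3% and 13.8%. In the class richest in H3K36me3 it was 4.37%, 9.36% and 11.4%. H3K27me3 covered more than H3K36me3 in 4, 37 and 74 windows with the 3 libraries. The 4 windows found in all 3 lay on chromosomes 1, 4, 7 and 12. In the window from 2000001 to 3000000 on chromosome 7, H3K36me3 covered 16.8% and H3K27me3 22.1%, 35.7% and 38.8%. In the window richest in H3K36me3, from 1000001 to 2000000 on chromosome 2, H3K36me3 covered 42.8% and H3K27me3 2.60%, 8.28% and 10.7%.

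In HHZ the marks kept apart to a like degree in 2 of 3 libraries. The share of H3K27me3 bases inside the HHZ H3K36me3 list was 2.62% in replicate 1 and 3.06% in replicate 2, near the JZ1560 values of 2.31% to 3.03%, but 37.9% in replicate 3. The list of that replicate had 26221 peaks of median width 1572 bp, close to the 22976 peaks and 1681 bp of the HHZ input and unlike the 13081 and 15116 peaks of the other HHZ H3K27me3 lists. Over all 3 libraries the HHZ share was 14.5% ± 20 (SD, n = 3) and that of JZ1560 lower by 11.9 percentage points, a difference that did not pass the two-sided exact permutation test (p = 0.4, adjusted over 2 tests 0.4), whose smallest p is 0.1. Without HHZ replicate 3 the HHZ mean was 2.84% ± 0.32 (SD, n = 2), and JZ1560 was lower by 0.173 percentage points (exact permutation p = 0.6). The switch share was 37.4%, 38.7% and 57.7% in HHZ, above all 3 JZ1560 values, with a difference of -14.2 percentage points (exact permutation p = 0.1, adjusted over 2 tests 0.2). Without HHZ replicate 3 the difference was -7.62 percentage points (exact permutation p = 0.2). The switch share of an unordered series depends on the domain counts, and HHZ had 16344 H3K36me3 domains against 18562 in JZ1560. No unordered value was taken for HHZ, so the part of the counts in the difference was not tested. The exact permutation tests of these designs cannot reach p = 0.05, so neither a difference nor its absence between the cultivars is shown, and the labels do not say whether libraries of a cultivar came from separate plants. The spread behind the p-values is therefore that between H3K27me3 libraries, and it may be technical. All values of a cultivar use its 1 H3K36me3 list, so a difference between these lists cannot be told apart from cultivar.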

How the data were processed

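Peaks were called with MACS for each library, per the file headers, from 51 bp single reads, per the labels' protocols. The score of each peak was deposited by the authors on a scale no header states, from 50 to a ceiling of 3100. FastQC, BWA, TopHat2 and HTSeq are named, without versions, in the submitters' processing notes. Not given in the sources used here are the genome build, the control of each peak call and the read depth. Coordinates are as deposited, counted from 1.

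Touching or overlapping peaks were to be merged into domains with Python 3.11.15 and NumPy 2.4.6. None were found within a list, so the domains of each list are its deposited peaks. Nearest distances, midpoint order, runs and shared bases (at least 1 bp) were computed for each H3K27me3 library against the H3K36me3 list, then averaged. Cultivars were compared by exact permutation over libraries with Benjamini-Hochberg adjustment over 2 tests, coded in Python with NumPy. SciPy 1.17.1 was used for the Wilson intervals and the correlations. The measures were tested on simulated data. Lengths of chromosomes were taken as the furthest peak end. Named places were the 3 runs with most domains and the 3 longest of each mark, the 10 widest shared places, the 3 longest alternations and the widest domain of each list. Windows and wide spaces were named after their values were seen. The members and lists were chosen with earlier results of these data known. Gene names and sequences were not used here, since no annotation on the coordinates of the lists was at hand. Alternatives were a score of 100 or more, equal peak numbers, removal of input bases, joining within 1 kb, a shared map, 500 bp of overlap, each replicate left out and a replicate block.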

Additional observations from a re-analysis of the deposited data

How the results depend on the processing

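Of 57 alternatives over the 7 results of JZ1560 alone, 47 left the value within 1 SD, or within 1.5 times for the number of places, and 10 moved it. Leaving out 1 of 3 replicates cannot move a mean by 1 SD. For the results judged by SD, those alternatives therefore say nothing of stability. The 22 alternatives for the cultivar differences say nothing of their stability by p, since these tests cannot pass the threshold. The differences kept their sign and ranged from -17.8 to -0.173 percentage points for the share, the first without HHZ replicate 1 and the last without HHZ replicate 3, and from -17.8 to -7.62 for the switch share, without the same libraries. With scores of 100 or more, the share of H3K27me3 bases inside H3K36me3 was 2.10% and the mean H3K36me3 run 5.39 domains. With equal peak numbers, the share was 0.882%, the median distance 13252 bp, the median gap at a switch 8150.5 bp and the number of places 357. With input bases removed, the share was 1.73% and the mean H3K36me3 run 5.21 domains. Joining within 1 kb gave a mean H3K27me3 run of 1.90 domains, and requiring 500 bp gave 559 places. Each of these changes uses fewer peaks, fewer bases or fewer domains by its construction, and beyond that the cause was not tested. Leaving out each H3K27me3 replicate in turn gave shares of 2.49% to 2.85%, switch shares of 27.9% to 34.2% and 728.5 to 1117 places. The replicate block, which pairs libraries of the same number across cultivars although no label says that they belong together, left the differences at -11.9 and -14.2 percentage points, with an exact sign-flip permutation p of 0.25 for each, the smallest it can give. The single H3K36me3 library and the unknown depth limit every value.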

Other observations

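H3K36me3 domains with H3K27me3 as neighbour on both sides were narrower than those among their own kind. On the map shared by at least 2 libraries, the median width was 2872 bp for 1569 such domains, 3210.5 bp for 6568 with H3K27me3 on 1 side and 3398 bp for 10401 with H3K36me3 on both sides. The same order was found with each library alone, with 2748.5, 2875 and 2886 bp against 3360, 3396 and 3410 bp for replicates 1, 2 and 3. The quartiles overlapped widely, 1746 to 4174 bp against 2263 to 4692 bp on the shared map, and domains are not replicates, so no test was made. For H3K27me3 domains the order differed between libraries. With the other mark on both sides, on 1 side and on neither, the medians were 820, 893.5 and 1038 bp in replicate 1 and 2301.5, 2386 and 2465 bp in replicate 3, in the same order as for H3K36me3. They were 1844, 1928 and 1879 bp in replicate 2 and 1862, 1877 and 1798 bp on the shared map, in another order.

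The widest space without H3K36me3 lay at chr4:2514100-3557036 and was 1043 kb long, with 0.892%, 2.43% and 2.72% H3K27me3. The widest stretch with no peak of H3K36me3 or of any H3K27me3 library lay at chr6:18218937-18838033 and was 619 kb long, with H3K4me3 over 0.110% and 0.207% of it and no H3K4me1, H3K27ac or input peak. Among spaces bounded by H3K36me3 on both sides, the widest with no H3K27me3 lay at chr4:15518343-15846167 and was 328 kb long. It held no peak of H3K4me3, H3K27ac or the input, and H3K4me1 covered 0.247% and 0.254% of it.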
